A study of Mus musculus with 16 samples.

Results

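Hearts of mice fed any of 3 primate formulas were compared with hearts of mice fed laboratory chow. The members are the 12 libraries titled NIA, UW and mNIA, 4 of each, taken as the mean of the 3 diet means and set against the 4 chow libraries. Together they are all 16 libraries of the series. Genes that lay on the same side of chow under all 3 formulas are reported. The animals were male C57BL/6 mice, 6 weeks old when assigned to a diet at random and kept on it for 6 months, and each library is the lower ventricle of 1 animal. Chow was a standard rodent diet. NIA and UW are 2 diets made for monkeys, and mNIA is the NIA diet changed so that its sucrose and fat match UW. All groups share the strain and sex, and the labels name no transgene and no other treatment. The labels give no fasting state and no hour of tissue collection.

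Ventricular muscle lives mainly on fatty acids, and its transcripts follow the fat, sterols and vitamins of the diet. PPAR receptors switch on genes of fat use when fatty acids are plentiful, LXR receptors switch on genes that move cholesterol out of the cell, and retinoic acid switches on Cyp26 enzymes that break it down again. A bulk ventricle also holds endothelial cells, fibroblasts, pericytes, macrophages and blood, so a transcript's level depends on the mix of cells too.

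Library totals ran from 4263827 to 5953964 counts in chow, 4880235 to 6583532 in UW and 3870480 to 6544172 in mNIA. In NIA they ran from 2278250 in replicate 4 to 63005490 in replicate 2. Levels below are CPM scaled by TMM, the read count relative to library size. Of the 16 libraries, 4 lay far from the mean of their diet, with a limma quality weight under 0.5. NIA replicate 4 had the lowest weight (0.16), then chow replicate 3 (0.23), NIA replicate 1 (0.3) and mNIA replicate 2 (0.36). Since chow replicate 3 is 1 of the 4 controls of every contrast, most differences from chow are also given without it. The 14 cardiomyocyte markers summed to 65850 to 97650 CPM in chow and 61660 to 144000 CPM on the formulas, while 10 airway and thymus markers, of which 5 were listed, summed to 0.781 to 2.55 and 0.407 to 2.44 CPM. The codes of the libraries (MNC under the title NIA, NC under UW, UC under mNIA) do not spell the titles. The mean of the 3 formulas and the genes on the same side in all 3 do not depend on which formula group is which, while values given for a single formula follow the titles.

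No gene of the 13381 tested differed between the primate formulas and chow at an adjusted p of 0.05 in edgeR (0%). An unadjusted p under 0.05 was found for 293 genes (2.19%), where an even spread of p would give 669. Of these, 138 (1.03%) had a higher mean and 155 (1.16%) a lower mean on the formulas. DESeq2 also passed 0 genes (390 or 2.91% with an unadjusted p under 0.05), and limma-voom with quality weights passed 4 (0.0299%), which were Phtf1os, Abca1, Gdf10 and Nedd9. Under all 3 formulas, 3158 genes (23.6%) had a higher mean than chow and 3504 (26.2%) a lower mean, 6662 or 49.8% in all. The 3 contrasts share the same 4 chow libraries. A gene is on the same side in all 3 whenever chow is the lowest or highest of the 4 diet means, which would be common without any effect of diet. That share was not estimated, so the 49.8% does not show a shared effect of the formulas. With upper-quartile scaling the split was 2535 higher and 4249 lower. Without chow replicate 3 it was 3500 higher (26%) and 2507 lower (18.6%), 6007 or 44.6% of 13479 genes, with 232 (1.72%) at an unadjusted p under 0.05 and 0 adjusted in edgeR. With all 4 low-weight libraries omitted, edgeR again passed 0 genes, and 615 of 13781 (4.46%) had an unadjusted p under 0.05. In the fit to all 16 libraries and in all 16 fits without 1 library, 1094 genes (8.18%) stayed higher and 1047 (7.82%) stayed lower. Over all tested genes the median log2 fold change was 0.00 and the median of its absolute size was 0.17. Counts of list genes on the same side in all 3 diets, given below, are to be read beside the shares over all tested genes. These were 23.6% higher and 26.2% lower, and 26% and 18.6% without chow replicate 3. Differences below are log2 fold changes of the formulas minus chow, each ± its SE from edgeR, and none passed in edgeR unless stated. Among the genes named, the adjusted p of Phtf1os was 0.164 and that of each other gene was 0.938 or more in edgeR.

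Genes of cholesterol export and fat handling were among those with the smallest p. Abca1, which exports cholesterol from cells to apolipoprotein A-I (chromosome 4, 53030789 to 53159895, minus strand), was at 26, 35.3, 31.8 and 32.9 CPM in the 4 chow animals. On the formulas it ran from 28.4 to 67.6 CPM with a median of 50.7. All 4 UW animals, 3 NIA animals and 3 mNIA animals lay above every chow animal, and NIA replicate 4 and mNIA replicate 2, both of low quality weight, fell inside the chow range. Chow animals averaged 31.5 ± 3.98 CPM (SD, n = 4). UW animals were highest at 61.5 ± 6.47, with mNIA at 46.4 ± 8.34 and NIA at 42.5 ± 11.7. The log2 fold change was 0.65 ± 0.17 (95% confidence interval 0.29 to 1.01), and 0.66 without chow replicate 3. Its promoter, 250 bases before to 50 after the RefSeq start at chr4:53159846-53160145 on the minus strand (GRCm38.p6), is shown because sterol receptors are known to act on it. Capitals mark an E-box (CACGTG) at base -147 and, at base -78, the hexamer AGAACA, which is a single arm of the paired glucocorticoid receptor site. Only exact spellings of the motifs were searched, so a sterol receptor site of another spelling would not be marked.
Abca1: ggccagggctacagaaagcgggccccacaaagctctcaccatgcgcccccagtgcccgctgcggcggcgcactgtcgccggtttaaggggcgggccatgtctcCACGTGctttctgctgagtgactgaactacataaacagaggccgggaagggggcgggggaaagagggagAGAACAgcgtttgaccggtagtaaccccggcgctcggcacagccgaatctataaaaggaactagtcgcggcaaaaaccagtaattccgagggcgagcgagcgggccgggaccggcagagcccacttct

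Mylip encodes a ubiquitin ligase whose gene is switched on by LXR. It stood at 24.6, 22, 21 and 21.8 CPM in chow and at 20.6 to 43.8 CPM on the formulas, with a median of 28.9. Of the 12 formula animals 11 lay above all chow animals, and NIA replicate 4 lay below them. The difference was 0.44 ± 0.15, and 0.41 without chow replicate 3. Lpcat3, which builds polyunsaturated phospholipids, was at 0.45 ± 0.25 (0.32 without that library). Abca1, Mylip and Lpcat3 belong to a list of 11 tested genes of cholesterol efflux and LXR targets, of which 5 (45.5%) were higher and 3 (27.3%) lower in all 3 diets. The median of that list was 0.02 over all libraries and 0.13 without chow replicate 3. In the list of cholesterol synthesis and uptake, 6 of 19 genes were higher (31.6%) and 8 lower (42.1%) in all 3 diets. Over all tested genes these shares were 23.6% and 26.2%. The list median was -0.14, and -0.13 without chow replicate 3. Dhcr7, the last step of cholesterol synthesis, was at 9.03 ± 0.652 CPM in chow and was lower in 11 of 12 formula animals than in any chow animal (-0.37 ± 0.17, and -0.32 without chow replicate 3).

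Scd4, a stearoyl-CoA desaturase of the mouse heart that makes monounsaturated fatty acids (chromosome 19, 44333326 to 44346743), was at 19.7, 22.2, 10.8 and 12 CPM in chow. On the formulas it ran from 15.1 to 90.2 CPM with a median of 30.03, and 11 of 12 animals lay above all chow animals. The difference was 1.18 ± 0.36, and 1.03 without chow replicate 3. Of its neighbours, Scd1 was at 21.7 CPM in chow and 20.1 on the formulas (-0.11 ± 0.14), and Scd2 was at -0.21 ± 0.23 and Scd3 at 0.02 ± 0.35. These were -0.17, -0.16 and 0.32 without chow replicate 3. The Scd genes resemble each other closely, which makes the assignment of reads among them uncertain. In the list of fatty acid synthesis and desaturation 3 of 21 genes were higher (14.3%) and 6 lower (28.6%) in all 3 diets. Over all tested genes these shares were 23.6% and 26.2%. The list median was -0.06 with and without chow replicate 3.

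Acot3, a peroxisomal thioesterase that frees fatty acids from coenzyme A (chromosome 12, 84052144 to 84060400), was at 1.17, 1.12, 0.589 and 0.845 CPM in chow and at 1.34 to 5.03 CPM on the formulas. All 12 formula animals lay above the 4 chow animals, on 21 reads in chow and 260 on the formulas. Acot3 entered the tested set, and met the mean of 1 CPM asked of named genes, only through the formula libraries, in which it is high. The difference was 1.13 ± 0.36, and 0.97 without chow replicate 3. The related Acot1 (cytosol) was at 0.83 ± 0.38 and Acot2 (mitochondria) at 0.65 ± 0.31, and they were at 0.57 and 0.52 without that library. Pdk4, which shuts pyruvate out of the mitochondrion when fat is burned, was at 322, 352, 70.9 and 202 CPM in chow, lowest in replicate 3, and at 185 to 2441 CPM on the formulas. Its groups overlapped, with 8 of 12 formula animals above all chow animals, and its difference was 1.48 ± 0.62 (1.17 without chow replicate 3).

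The list of fatty acid oxidation and PPAR targets as a whole moved with chow replicate 3. Of its 38 genes, 23 (60.5%) were higher and 2 (5.26%) lower in all 3 diets, with a median of 0.21. Each animal's list level (log2 CPM of a gene minus that gene's mean over animals, as a median over the list) was -0.92 in chow replicate 3 against 0.02 to 0.14 in the other chow animals and -0.41 to 0.44 on the formulas. Without that library 12 genes were higher and 10 lower, with a median of 0.02. The citric acid cycle list followed the same animal: 13 of 24 genes were higher and 0 lower with it (median 0.14), and 1 was higher and 5 lower without it (median -0.04). Its level was -1.29 in chow replicate 3 and 0.08 to 0.23 in the other chow animals. Nuclear genes of the respiratory chain had a median of 0.13 (0.16 without chow replicate 3), with 0.66 in NIA, -0.23 in UW and 0.00 in mNIA. A single library of low quality weight, NIA replicate 4, stood at a level of 1.53, against -0.14 to 0.35 in the other NIA animals. With all 4 low-weight libraries omitted the median turned to -0.08. Only 4 of the 40 were higher and 2 lower in all 3 diets. Cytosolic ribosomal protein genes had a median of 0.18 (0.27 without chow replicate 3, and 0.06 with the 4 omitted), and the same NIA animal was at 1.56 against -0.43 to 0.33 in the other 3.

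Cyp26b1, which breaks down retinoic acid (chromosome 6, 84571414 to 84593908, minus strand), was at 4.1, 2.09, 5.89 and 2.7 CPM in chow. On the formulas it ran from 4.52 to 24.9 CPM with a median of 9.97. Of the 12 formula animals 9 lay above all chow animals and 0 below them, and the spread within a diet was wide: 9.67 ± 4.02 CPM in NIA, 11.2 ± 9.19 in UW and 15.8 ± 8.64 in mNIA. The difference was 1.68 ± 0.48 (interval 0.66 to 2.69), and 1.98 without chow replicate 3. In fits without each library in turn it ran from 1.42 to 1.98. Aldh1a2, which makes retinoic acid, was at 0.47 ± 0.24 but at 0.00 in mNIA, and Dhrs3, which turns retinal back to retinol, was at 0.29 ± 0.17. They were at 0.59 and 0.39 without chow replicate 3. In the list of retinoid handling and targets 5 of 16 genes were higher (31.2%) and 2 lower (12.5%) in all 3 diets. Over all tested genes these shares were 23.6% and 26.2%. The list median was 0.05, and 0.13 without chow replicate 3. The Cyp26b1 promoter at chr6:84593761-84594060, minus strand, GRCm38.p6, is shown because the enzyme breaks down retinoic acid. A retinoic acid element was searched only as an exact direct repeat of AGGTCA with 5 bases between. This spelling did not occur in the window on either strand, nor did any of the other motifs searched. The exact repeat occurs in only 0.00913% of all promoters, so its absence does not tell whether Cyp26b1 has such an element.
Cyp26b1: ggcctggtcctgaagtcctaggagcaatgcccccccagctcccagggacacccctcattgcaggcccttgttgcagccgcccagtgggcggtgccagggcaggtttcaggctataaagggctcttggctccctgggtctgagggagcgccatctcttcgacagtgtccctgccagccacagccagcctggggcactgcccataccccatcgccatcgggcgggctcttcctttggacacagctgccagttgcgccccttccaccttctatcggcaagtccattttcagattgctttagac

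The gene with the smallest p was Phtf1os, a transcript that runs opposite to Phtf1 (chromosome 3, 103964536 to 103968316, minus strand). In chow it had 0, 0, 0 and 2 reads after rounding of the expected counts. On the formulas every library held at least 1 read, 231 in all, of which 145 were in the deep NIA replicate 2. The 12 formula animals ran from 0.67 to 3.9 CPM with a median of 1.69, above the 0.338 CPM of the highest chow animal. With so few chow reads it entered the tested set, and met the mean of 1 CPM, only through the formula libraries in which it is high. Relative to scaled library size the formulas held 20.1 times the chow level (interval 5.51 to 167), and 17.6 times (4.73 to 148) without NIA replicate 2. These intervals cover counting error only. In edgeR the difference was 3.92 ± 0.66 (adjusted p = 0.164), and 3.59 without chow replicate 3, and it was 4.23 in NIA, 2.97 in UW and 4.55 in mNIA. Phtf1 itself, which starts at 103968110 on the plus strand and so overlaps the start of Phtf1os, was at 13.1 CPM in chow and 11.5 on the formulas (-0.17 ± 0.18, and -0.06 without chow replicate 3). The libraries were stranded, but the strand setting of the counting is not given in the sources used here, so reads of this pair in the overlap may not be told apart. The Phtf1os promoter (chr3:103968267-103968566, minus strand, GRCm38.p6) is shown because it lies within Phtf1, with the single-arm hexamer AGAACA in capitals at base -229.
Phtf1os: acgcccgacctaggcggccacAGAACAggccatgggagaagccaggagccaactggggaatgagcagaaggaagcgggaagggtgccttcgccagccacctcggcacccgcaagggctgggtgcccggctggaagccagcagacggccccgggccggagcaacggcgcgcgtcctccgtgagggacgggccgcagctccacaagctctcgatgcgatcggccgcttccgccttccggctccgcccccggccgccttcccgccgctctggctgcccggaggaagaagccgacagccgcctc

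Ugt1a6b, which attaches glucuronic acid to phenols and drugs, was at 0.586, 0.161, 0.196 and 0 CPM in chow. On the formulas it ran from 0 to 3.35 CPM, and 10 of 12 animals lay above all chow animals while NIA replicate 1 and mNIA replicate 1 were at 0. The difference was 2.62 ± 0.78, and 2.58 without chow replicate 3. Like Phtf1os it entered the tested set, and met the mean of 1 CPM, only through the formula libraries in which it is high. The reads numbered 5 in chow and 225 on the formulas, 7.84 times the chow level relative to library size (interval 3.31 to 24.4, counting error only), and 6.64 times (2.73 to 21.0) without NIA replicate 2. The genes of the UGT1A locus share their last exons, so the assignment of these reads to 1 gene is uncertain.

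Of the 12 higher genes with the smallest p, the other 6 were Zfp991, a zinc finger gene, Tceal8, a small nuclear factor gene on the X chromosome, Fam199x, Nedd9, a scaffold of cell adhesion signalling, Thap2, a THAP-domain gene, and Tfpi, an inhibitor of the tissue factor pathway of clotting. Tceal8 was at 11.1, 9.63, 9.42 and 10.8 CPM in chow and at 12.5 to 33.4 CPM on the formulas, so that the groups did not overlap (0.80 ± 0.22, and 0.76 without chow replicate 3). Zfp991 was at 7.55 to 12.7 CPM in chow and 12.6 to 32.7 CPM on the formulas, with 11 of 12 above all chow animals and nearly equal differences of 0.94 in NIA, 0.88 in UW and 0.92 in mNIA. Its mean difference was 0.91 ± 0.25, and 0.98 without chow replicate 3. It belongs to a family of near-identical zinc finger genes, and its reads are uncertain for that reason. Nedd9 averaged 29.3 ± 4.05 CPM on chow against 47.9 ± 5.58 on UW, 40.8 ± 8.22 on mNIA and 36.9 ± 7.76 on NIA (0.51 ± 0.16, and 0.61 without chow replicate 3). Fam199x was at 0.62 ± 0.18, Thap2 at 0.53 ± 0.17 and Tfpi at 0.69 ± 0.23, and without chow replicate 3 they were at 0.54, 0.51 and 0.56. All 12 kept their side in all 3 diets and an unadjusted p under 0.05 without chow replicate 3. Since they were taken for their small p, this count is a description of the list and no test of it.

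**Figure D1:**
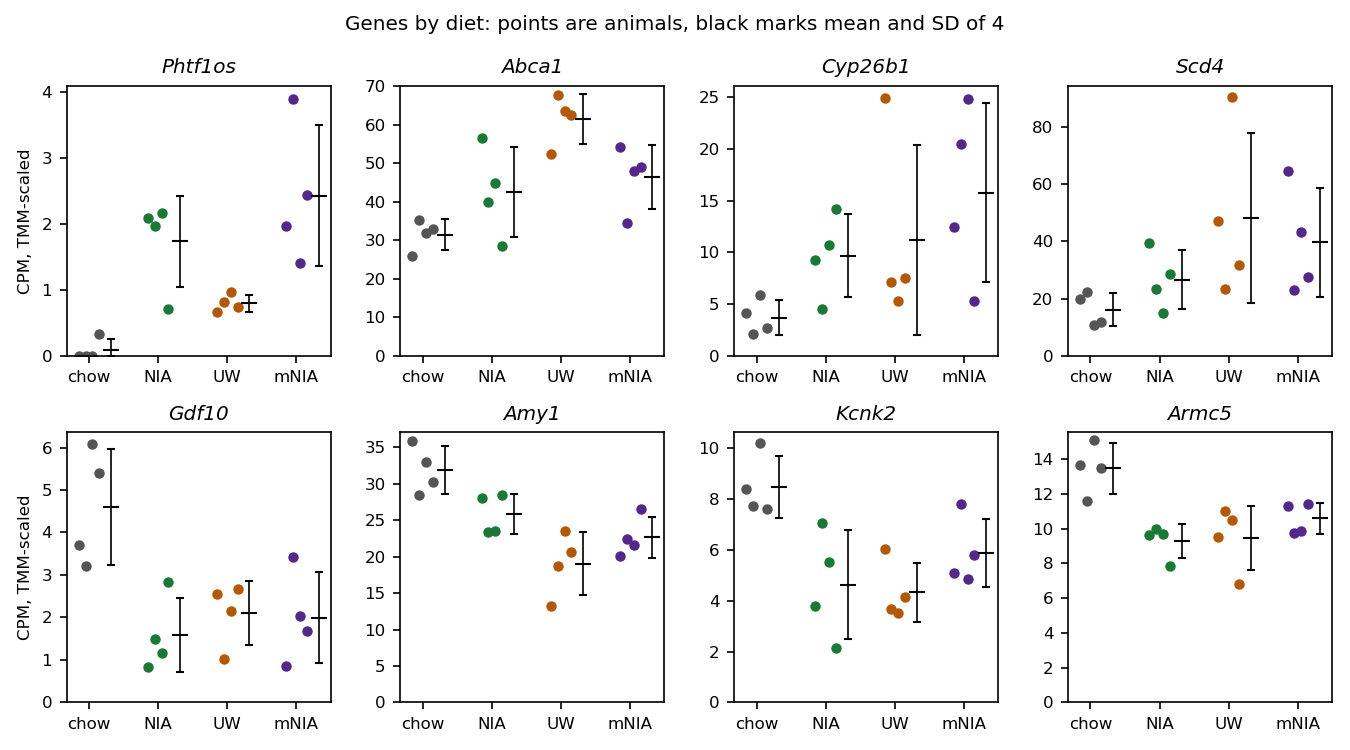
TMM-scaled CPM (y axis, from 0) of 8 genes in each of the 16 animals, by diet, with the mean and SD of 4 animals in black. Abca1, Cyp26b1, Scd4 and Phtf1os lie higher on the 3 formulas than on chow and Gdf10, Amy1, Kcnk2 and Armc5 lower, with Phtf1os and Armc5 free of overlap between the 12 formula animals and the 4 chow animals.

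Among genes with a lower mean under all 3 formulas, Gdf10 had the smallest p. It encodes a secreted factor of the BMP family (chromosome 14, 33923587 to 33936514). Chow animals were at 3.71, 3.21, 6.08 and 5.41 CPM, and formula animals at 0.839 to 3.41 CPM with a median of 1.85. Of the 12 formula animals 11 lay below all chow animals, mNIA replicate 2 being the exception. The difference was -1.32 ± 0.30 (interval -1.95 to -0.69), with -1.66 in NIA, -1.10 in UW and -1.20 in mNIA, and it was -1.16 without chow replicate 3. In the list of BMP and GDF signalling, which holds Gdf10, 4 of 20 genes were higher (20%) and 7 lower (35%) in all 3 diets. Over all tested genes these shares were 23.6% and 26.2%. The list median was -0.08, and 0.07 without chow replicate 3. Bmpr2, a receptor of the family, was at 0.38 ± 0.24 (0.23 without chow replicate 3) and the ligand gene Bmp4 at -0.38 ± 0.29 (-0.12 without that animal, in which it was highest).

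Amy1, an amylase that cuts starch (chromosome 3, 113555952 to 113577750, minus strand), was at 35.9, 28.4, 33 and 30.2 CPM in chow. Formula animals ran from 13.3 to 28.4 CPM with a median of 22.9, and 11 of 12 lay below all chow animals. The difference was -0.52 ± 0.14, and -0.50 without chow replicate 3. It was -0.32 in NIA, -0.75 in UW and -0.49 in mNIA. Amylase genes stand in tandem near copies, so the assignment of reads to Amy1 is uncertain.

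Kcnk2, the stretch-gated potassium channel TREK-1, was at 8.39, 7.71, 10.2 and 7.6 CPM in chow and at 2.13 to 7.8 CPM on the formulas. Of the 12 formula animals 11 lay below all chow animals, and the difference was -0.72 ± 0.22 (-0.62 without chow replicate 3). Lcat, the enzyme that esterifies cholesterol on lipoproteins, was at 0.976, 2.09, 7.26 and 4.05 CPM in chow, highest in replicate 3. It overlapped widely, with 5 of 12 formula animals below all chow animals, and its difference of -1.38 ± 0.43 was -0.81 without that animal. Lcat reached the tested set only with the chow libraries, in which it is high, counted in. Klra9, a receptor of natural killer cells from a family of near copies, went from -1.07 ± 0.33 to -0.63 without chow replicate 3, which held 13 CPM against 4.68 to 5.94 in the other chow animals. Ift27, of the transport machinery of cilia, stood at 6.11 ± 0.643 CPM in UW and 6.03 ± 0.81 in mNIA against 10.3 ± 1.93 in chow, with NIA between at 8.88 ± 1.05 (-0.58 ± 0.16, and -0.46 without chow replicate 3).

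The remaining lower genes were Fam173a, a lysine methyltransferase of the mitochondrial ADP carrier (-0.56 ± 0.17), Dcxr, a carbonyl reductase (-0.52 ± 0.16), Ppm1j, a protein phosphatase (-0.50 ± 0.16), Fuk, which phosphorylates fucose (-0.72 ± 0.24), Armc5, an armadillo-repeat protein (-0.45 ± 0.15), and Frmd3 (-1.11 ± 0.38). In Fam173a, Dcxr, Ppm1j and Fuk chow replicate 3 was the highest of all 16 animals, and without it their differences were -0.42, -0.39, -0.40 and -0.47. Armc5 was then at -0.39 and Frmd3 at -1.08. Like Lcat, Frmd3 reached the tested set only with the chow libraries, in which it is high, counted in. Of the 12 lower genes 9 kept an unadjusted p under 0.05 without chow replicate 3, and those that did not were Klra9, Lcat and Fuk. All but Lcat, which then lay on both sides of chow, kept their side in all 3 diets.

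**Figure D2:**
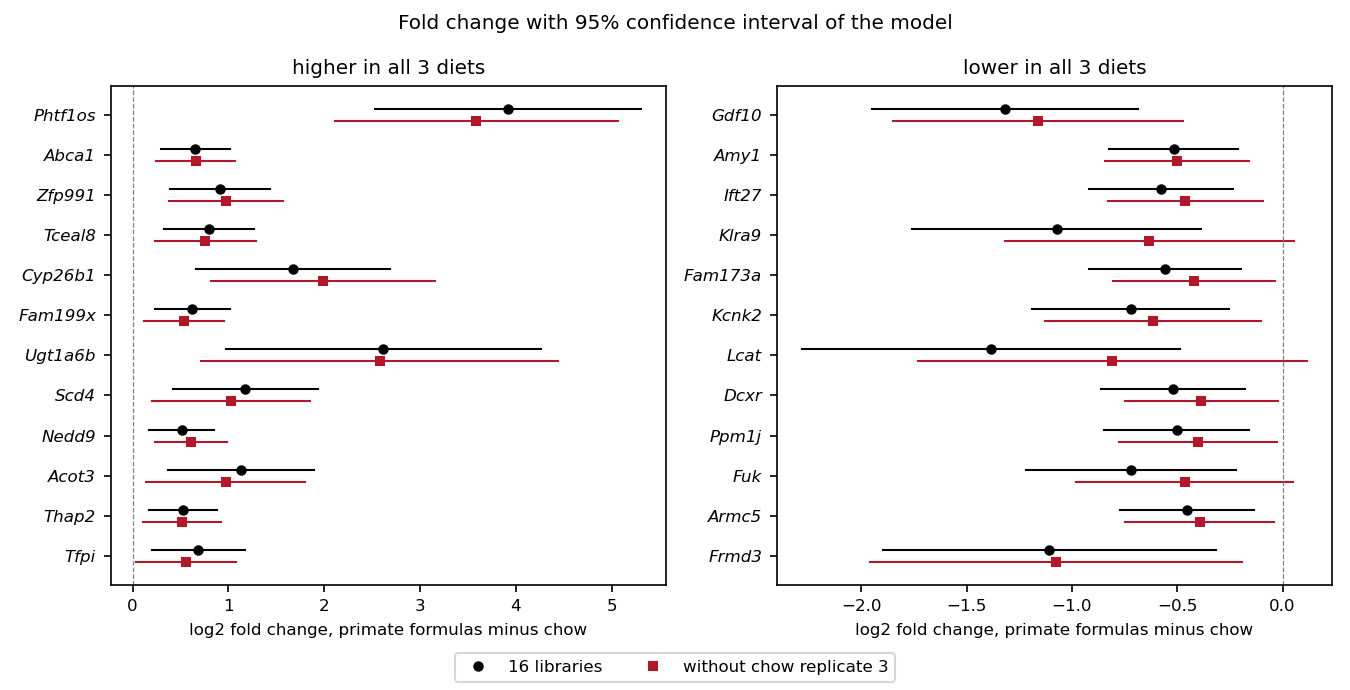
Log2 fold change of the formulas minus chow (x axis) with its 95% confidence interval, for the 12 higher and 12 lower genes with the smallest p, from all 16 libraries (black) and without chow replicate 3 (red). Phtf1os stands farthest out at 3.92, Cyp26b1 is at 1.68 and 1.98, and Lcat moves from -1.38 to -0.81.

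In 12 genes (0.0897%) the 12 formula libraries and the 4 chow libraries did not overlap, 5 with the formulas above (0.0374%) and 7 below (0.0523%). Among 13381 tested genes some would be free of overlap without any effect of diet. That number was not estimated, so these genes are a description of the libraries and their separation is no evidence of a difference. The 5 were Phtf1os, Tceal8, Acot3, Pkp4 and Gm19522, which has a clone name and was chosen after its values were seen. Phtf1os and Acot3 entered the tested set only through the formula libraries. Pkp4, a plaque protein of cell junctions, was at 156, 156, 125 and 149 CPM in chow and at 158 to 215 CPM on the formulas (0.30 ± 0.15, and 0.23 without chow replicate 3). The 7 lower genes differed by little: Armc5, Ano8, Crhr2, Tmem25, Slc44a2, Slc4a3 and Tarbp2 lay between -0.45 and -0.32. Armc5 was at 13.7, 11.6, 15.1 and 13.5 CPM in chow against 6.83 to 11.4 CPM on the formulas. Crhr2, the receptor for urocortins in heart muscle, was at 40, 37.1, 47.5 and 38.7 CPM in chow and at 25.7 to 36.6 CPM on the formulas (-0.35 ± 0.13, and -0.27 without chow replicate 3). Slc44a2, a choline transporter of mitochondria and plasma membrane, was at 107, 104, 116 and 106 CPM against 74.0 to 102 CPM (-0.32 ± 0.13, and -0.28 without that animal). Slc4a3, the cardiac anion exchanger AE3, was at 248, 247, 324 and 259 CPM in chow, and its highest formula animals and lowest chow animal were both at 247 CPM to 3 digits. Its difference was -0.44 ± 0.22, and -0.34 without chow replicate 3. Ano8, an anoctamin, was at -0.44 ± 0.15, Tmem25 at -0.39 ± 0.15, and Tarbp2, a partner of Dicer in microRNA processing, at -0.34 ± 0.17, and without chow replicate 3 they were at -0.48, -0.38 and -0.34. With 1 library left out, fewer animals have to be kept apart, and 13 to 46 genes were free of overlap over the 16 cases.

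**Figure D3:**
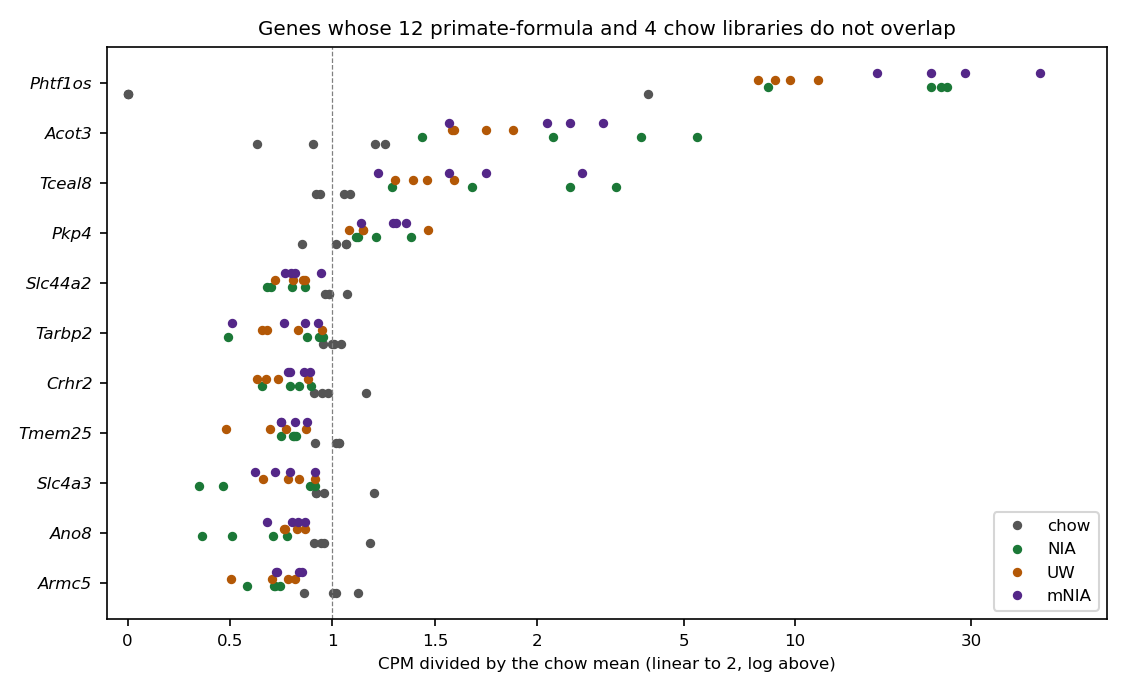
CPM divided by the chow mean (x axis, linear up to 2 and logarithmic above) in each animal for the 11 named genes whose 12 formula animals and 4 chow animals do not overlap. The 4 genes at the top lie above chow, Phtf1os by most, and the 7 below lie within a narrow distance of it, with log2 fold changes of -0.45 to -0.32.

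Genes that glucocorticoids switch on had higher means on the formulas with and without chow replicate 3. Of 21 tested, 14 (66.7%) were higher and 0 lower in all 3 diets, and without that library the counts were again 14 and 0. The median was 0.35 over all libraries, 0.41 without chow replicate 3 and 0.47 when all 4 low-weight libraries were omitted, and by diet it was 0.23 in NIA, 0.66 in UW and 0.19 in mNIA. The list level was 0.26 in chow replicate 3 and -0.27 to -0.13 in the other chow animals. It ran from -0.53 to 0.97 on the formulas, with 4 of 12 animals above all chow and 2 below all chow. By animal it was -0.126, 0.042, 0.421 and -0.024 in NIA, and -0.255, 0.754, 0.973 and -0.034 in UW. In mNIA it was -0.527, -0.19, -0.336 and 0.4, so that only replicate 4 lay above all chow. Mt2, a metallothionein that binds zinc and copper, was at 6.44, 6.42, 11.6 and 2.53 CPM in chow and at 5.19 to 44.4 CPM on the formulas. It overlapped in most animals, with 1.81 on UW, 0.72 on NIA and 0.06 on mNIA (mean of diets 0.86 ± 0.40, and 1.25 without chow replicate 3). Cdkn1a, an inhibitor of the cell cycle, was at 0.59 ± 0.36, and 0.88 without that library. Of the 21 genes 2 had an unadjusted p under 0.05, Pdk4 and Mt2.

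Chaperones and immediate early genes shifted in opposite ways when chow replicate 3 was left out. Of 25 heat shock proteins and chaperones 17 (68%) were higher and 0 lower in all 3 diets (median 0.24), and without chow replicate 3 there were 7 higher and 3 lower (median 0.07). Its level was -0.63 in that animal and -0.11 to 0.02 in the other chow animals. Dnaja1, which hands clients to HSP70, was an exception at 0.38 ± 0.19 and 0.43 without it, from 74.2 to 87 CPM in chow to 74.9 to 168 CPM on the formulas. Hspa1a, an inducible HSP70, was at 1.02 ± 0.53 (1.08 without chow replicate 3), with 24.3 CPM in mNIA replicate 4 against 2.5 to 4.14 CPM in the other mNIA animals. For 24 immediate early genes, which answer stimuli within minutes, 6 were higher and 5 lower in all 3 diets (median 0.10), and without chow replicate 3 there were 13 higher and 0 lower (median 0.46). That animal's level was 0.65 against -0.29 to -0.25 in the other chow animals. Nr4a3, an orphan nuclear receptor of this class, was at 1.36 ± 0.61 (1.14 without chow replicate 3), again with 26.1 CPM in mNIA replicate 4 and 1.69 to 6.09 CPM in the other mNIA animals. When all 4 low-weight libraries were omitted, the median of immediate early genes was 0.55 and that of chaperones 0.03.

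Antigen presentation and interferon genes had lower means on the formulas when all libraries were used. Of 21 MHC class I presentation genes 14 (66.7%) were lower and 2 (9.52%) higher in all 3 diets (median -0.39), and of 35 interferon-stimulated genes 25 (71.4%) were lower and 1 (2.86%) higher (median -0.23). Tap1, which carries peptides into the endoplasmic reticulum for MHC class I, was at 12.5, 13, 32.6 and 17.4 CPM in chow and at 2.85 to 19.9 CPM on the formulas. Chow replicate 3 was above all other animals, and the remaining 3 chow animals lay inside the formula range. Its difference was -0.69 ± 0.35, and -0.29 without chow replicate 3. Tap2 went from -0.51 ± 0.24 to -0.33 and H2-Q6, a class I gene with near copies, from -0.71 ± 0.33 to -0.43. B2m, the light chain of class I, was at -0.02 ± 0.27, and 0.32 without that animal. Gbp4, an interferon-induced GTPase, was at 25.4, 33.6, 114 and 75.7 CPM in chow, and its difference went from -0.96 ± 0.38 to -0.49. Igtp, of the same response, kept -0.35 in both fits. The level of the class I list was 0.92 in chow replicate 3 and -0.02 to 0.07 in the other chow animals. That of the interferon list was 0.79 against -0.04 to 0.13. Without chow replicate 3 the medians were -0.07 for class I (3 higher, 8 lower) and 0.03 for interferon-stimulated genes (11 higher, 11 lower).

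Markers of vessels and blood moved with the same library. In bulk tissue fewer cells of a type and less RNA per cell cannot be told apart. Of 20 endothelial markers 0 were higher and 12 (60%) lower in all 3 diets (median -0.27), and without chow replicate 3 there were 7 higher and 1 lower (median 0.04). Their summed level ran from 3111 to 5807 CPM in chow and from 2608 to 5262 CPM on the formulas, and the list level was 0.81 in chow replicate 3 against -0.10 to 0.12 in the other chow animals. Cldn5, of endothelial tight junctions, was at 17.4, 16.1, 74.2 and 16.4 CPM in chow, so that 1 animal set its mean, and its difference turned from -0.70 ± 0.42 to 0.20 without it. Egfl7, a protein secreted by endothelium, went from -0.57 ± 0.40 to 0.01. The part that the cell mix of chow replicate 3 has in the immune and metabolic lists was not tested.

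Pericyte and smooth muscle markers kept their count of lower genes without that animal: 11 of 16 (68.8%) were lower and 1 higher in all 3 diets, and without chow replicate 3 there were 11 lower and 0 higher. The median was -0.35 over all libraries and -0.18 without that animal. Their sum ran from 1778 to 2056 CPM in chow and from 1595 to 2113 CPM on the formulas. The list level overlapped between the groups: 8 of 12 formula animals were below all chow animals, and the lowest was at -0.91. Myh11, smooth muscle myosin, was at 39.2, 40.6, 97 and 63 CPM in chow and at 9.96 to 75.6 CPM on the formulas (-0.57 ± 0.33, and -0.24 without chow replicate 3). Cnn1, calponin of smooth muscle, had an interval of -1.96 to -0.04, and was at -0.22 without chow replicate 3. Basement membrane genes, which vessel walls and muscle cells both make, were lower in 9 of 19 cases and higher in 0 (median -0.19), and 4 were lower and 2 higher without chow replicate 3 (median -0.11). Lama5, a laminin chain, went from -0.71 ± 0.33 to -0.36. Erythrocyte and platelet markers had a median of -0.46, and -0.16 without that animal. It was 0.12 in NIA, -0.81 in UW and -0.55 in mNIA, so the 3 formulas did not share a side.

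**Figure D4:**
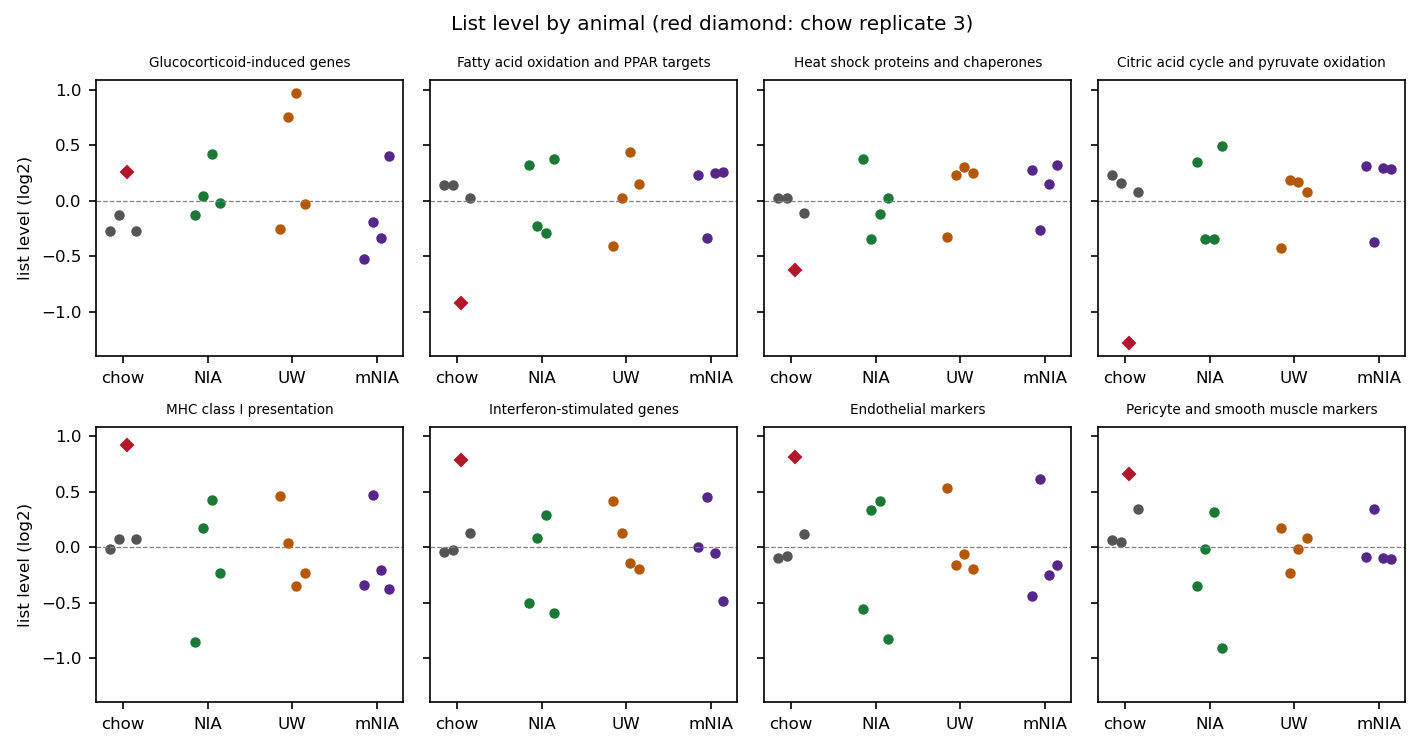
List level (y axis, log2 units relative to the mean over animals) of 8 gene lists in each animal by diet, with chow replicate 3 as a red diamond. That animal is lowest for fatty acid oxidation (-0.92), chaperones and the citric acid cycle (-1.29) and highest for MHC class I (0.92), interferon-stimulated, endothelial and pericyte genes, while for glucocorticoid-induced genes it is the highest of the 4 chow animals (0.26).

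Markers of macrophages and fibroblasts showed little that the 3 diets shared. Of 19 macrophage markers 2 were higher and 1 lower in all 3 diets (median -0.02, and 0.06 without chow replicate 3, with 0.14 in NIA, 0.23 in UW and -0.36 in mNIA). Lyve1, of resident macrophages and lymphatic endothelium, was at 14.1, 14.3, 15.7 and 12 CPM in chow and at 11.7 to 31.0 CPM on the formulas, with 9 of 12 animals above all chow (0.43 ± 0.18, and 0.49 without chow replicate 3). Fibroblast markers had a median of -0.06 with and without that animal, with 2 of 15 higher and 5 lower. Epicardial and mesothelial markers, a thin surface layer whose share depends on the piece taken, had the highest median of all lists with at least 5 tested genes, 0.44, and 0.55 without chow replicate 3. Only 7 of 12 were tested, 3 of them higher in all 3 diets, and the list stood at -0.11 in mNIA.

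Genes of fibrosis and cardiac stress, the theme of the series, showed small differences or lay on different sides of chow by diet. Of 29 genes of fibrillar collagen and matrix 2 were higher (6.9%) and 7 lower (24.1%) in all 3 diets (median -0.09, and -0.03 without chow replicate 3). Of 24 of profibrotic signalling 9 were higher (37.5%) and 6 lower (25%), with a median of 0.03, and 0.06 without that animal. Over all tested genes the shares were 23.6% higher and 26.2% lower. Col1a1, a chain of type I collagen, was at 124, 143, 165 and 118 CPM in chow and at 41.2 to 198 CPM on the formulas (-0.24 ± 0.25, and -0.14 without chow replicate 3). Col3a1 was at -0.06 ± 0.21, the matrix protein gene Postn at -0.09 ± 0.17, fibronectin Fn1 at 0.02 ± 0.28, the growth factor Tgfb1 at -0.08 ± 0.21 and Lox, which crosslinks collagen, at 0.15 ± 0.26. Their 95% intervals were -0.51 to 0.39, -0.45 to 0.27, -0.57 to 0.61, -0.52 to 0.36 and -0.40 to 0.70. Without chow replicate 3 they were at -0.07, -0.03, 0.04, 0.10 and 0.27, so Tgfb1 turned sign. Timp1, an inhibitor of matrix proteases, turned from -0.59 ± 0.40 to 0.11 without chow replicate 3. Ctgf, a matrix protein that responds to TGF-beta and stretch, was at 46.3, 43.7, 42 and 40 CPM in chow and at 32.7 to 148 CPM on the formulas, with 9 of 12 animals above all chow. Its difference was 0.48 ± 0.23 (0.47 without chow replicate 3), made up of 0.31 in NIA, 1.01 in UW and 0.11 in mNIA.

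Of 13 cardiac stress and fetal genes 6 were higher and 1 lower in all 3 diets (median 0.24, and 0.08 without chow replicate 3). Nppa, atrial natriuretic peptide, was at 83.9, 131, 223 and 115 CPM in chow, highest in replicate 3, and its difference was -0.30 ± 0.26, or 0.03 without that animal. Nppb, brain natriuretic peptide, was at 0.45 ± 0.35 (0.57 without chow replicate 3), with 633 CPM in NIA replicate 4 against 145 to 235 CPM in the other NIA animals. The fast and slow myosin heavy chains of the ventricle overlapped: Myh6 was at 0.04 ± 0.39 and Myh7 at -0.06 ± 0.33, and without chow replicate 3 at -0.11 and -0.10. Txnip, a brake on glucose uptake, was at -0.14 ± 0.23, the clock output gene Dbp at -0.22 ± 0.22 and the clock gene Arntl at 0.63 ± 0.47. These were -0.24, -0.29 and 0.72 without that animal. Among the 20 genes named whatever their values, 3 had an unadjusted p under 0.05, Abca1, Cyp26b1 and Pdk4, and without chow replicate 3 there were 2, Abca1 and Cyp26b1.

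**Figure D5:**
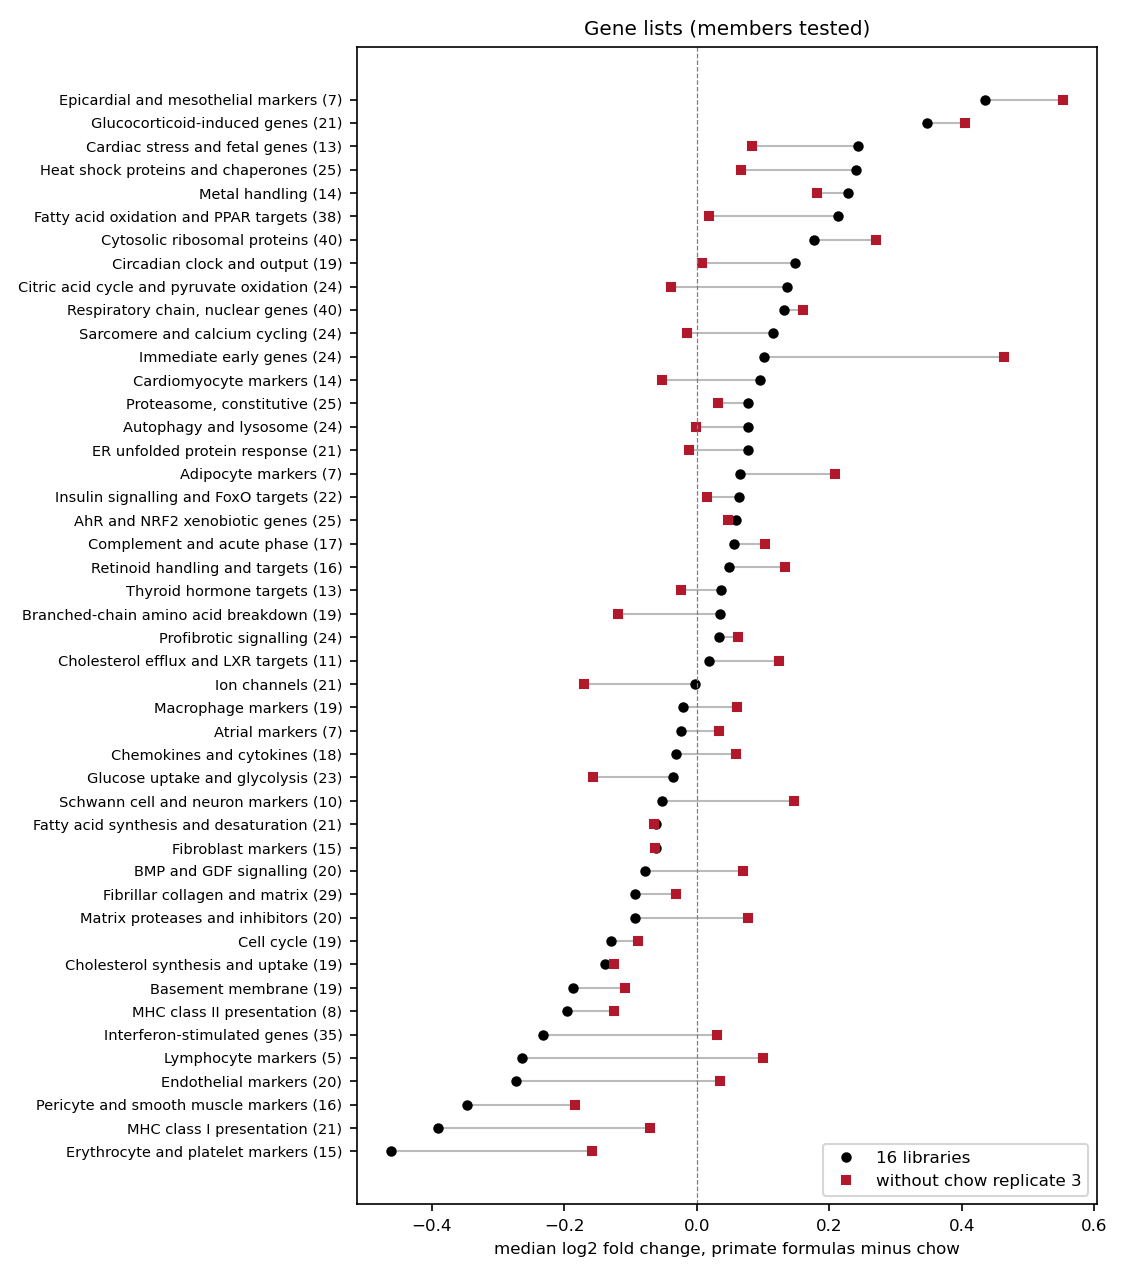
Median log2 fold change of the formulas minus chow (x axis) of each gene list with at least 5 tested members (number tested in parentheses), from 16 libraries (black circles) and without chow replicate 3 (red squares). Glucocorticoid-induced genes stay on 1 side at 0.35 and 0.41, while MHC class I genes move from -0.39 to -0.07 and fatty acid oxidation genes from 0.21 to 0.02.

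Cell cycle genes were lower in 11 of 19 cases and higher in 3 (median -0.13, and -0.09 without chow replicate 3), with Mcm5, a part of the replication helicase, at -0.60 ± 0.24 and Cdkn1b, an inhibitor of cyclin-dependent kinases, at 0.36 ± 0.17. Without chow replicate 3 these were -0.39 and 0.32. Genes of glucose uptake and glycolysis were higher in 1 of 23 cases and lower in 4 (median -0.04), and without that animal 0 were higher and 12 lower (median -0.16). Genes of circadian rhythm had a median of 0.15, and 0.01 without it.

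The 3 formulas were also compared with each other in a joint test that leaves chow out of the contrast. No gene differed among them at an adjusted p of 0.05 in edgeR (0%), while 1231 (9.2%) had an unadjusted p under 0.05. DESeq2 passed 177 (1.32%) and limma-voom 1339 (10%). Of the 288 genes on the same side in all 3 diets with an unadjusted p under 0.05 against chow, 136 were higher (1.02%) and 152 lower (1.14%). Of them, 22 had an unadjusted p under 0.05 among the formulas. Among the 24 genes with the smallest p there were 4, which were Phtf1os, Abca1, Ift27 and Lcat. Without chow replicate 3, 273 of the 288 genes were still on the same side in all 3 diets and 78 still had an unadjusted p under 0.05.

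Promoters of the 24 genes with the smallest p were searched on both strands for 7 motifs, in the RefSeq windows from 250 bases before to 50 after the start. Direct repeats of AGGTCA with 1 base between (PPAR), 4 bases (LXR) or 5 bases (retinoic acid) occur as spelled in 0.0396%, 0.0152% and 0.00913% of the 32851 promoters of the table. They occurred in 0 of the 10 higher genes and 0 of the 9 lower genes for which a promoter was found. A gene counts if any of its windows matches, and some genes, such as Tfpi and Kcnk2, have more than 1. The percentages count each window once, so gene counts and percentages are in unlike units. The E-box CACGTG, found in 7.15% of all promoters, occurred in 3 of the 10 higher genes, Abca1, Tceal8 and Tfpi, and in 0 of the 9 lower genes. The single-arm glucocorticoid hexamer AGAACA, found in 19%, occurred in Phtf1os and Abca1 among the higher genes and in Amy1 and Kcnk2 among the lower genes. A heat shock element (GAANNTTC, 7.86%) occurred in Amy1, and an interferon element (GAAANNGAAA, 3.44%) in none. A match is a description of the letters and not a binding site. Only exact spellings were searched. The 3 direct repeats are so rare as spelled that their absence does not show that a gene lacks such a site.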

How the data were processed

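RNA of 16 mouse ventricles (RIN above 7.0) was poly-A selected, made into stranded libraries and read as single 75-base reads, per the labels' protocols. The authors deposited expected counts per gene: 13 to 52.4% of the values were not whole numbers, depending on the library. BWA, DESeq2 and mm10 are named in the submitters' processing notes. The counting tool, the gene models and the strand setting are not given in the sources used here.

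Expected counts were rounded to whole numbers. Of 17737 genes, 13381 (75.4%) passed edgeR's filterByExpr with diet as group. edgeR 4.0.16 (R 4.3.3) was run with TMM scaling, 1 mean per diet and a robust quasi-likelihood fit, and p was adjusted by Benjamini-Hochberg over all tested genes with a threshold of 0.05. The SE was the log2 fold change divided by the root of F. The common biological coefficient of variation was 0.28. DESeq2 1.42.0 and limma 3.58.1 (voom with quality weights) were alternatives, as were other scalings and filters, a replicate block and the omission of libraries. The tests were tried on simulated counts first. Each library is 1 animal, so p measures the spread between animals. The design is 4 animals per diet, and no extraction or sequencing batch is given in the labels used here.

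The genes named were up to 12 higher and 12 lower with the smallest p among those on the same side in all 3 diets with a mean of at least 1 CPM and no clone name, up to 8 per direction of those without overlap, the 3 of each of 49 lists with the smallest p on the same side in all 3 diets, and 20 fixed genes. Scd1, Scd2, Scd3, Phtf1 and Gm19522 were added after values were seen. Members and lists were chosen with earlier results of these data known. Promoters are RefSeq GRCm38.p6 windows, matched by symbol. Gene coordinates are the file's, with the end given as 1 base less than its stop column, as in RefSeq. One gene that the rule names is not reported here.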

Additional observations from a re-analysis of the deposited data

Results flagged for a closer look

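In 332 sets of 4 animals (75 genes of the text and 8 gene lists in each diet) 1 animal stood apart from the other 3 in 36 cases, by Dixon's ratio of its gap to the range. Chance gives about 1 in 20 for independent sets of normally distributed values. These sets share the same animals, and many of the genes were chosen by their values in these libraries. The 36 cases therefore cannot be set against that rate. Of the 36, 12 were chow replicate 3, and no cause was tested.

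In chow replicate 3 the fatty acid oxidation list was at a level of -0.92 (others 0.02 to 0.14), the citric acid cycle list at -1.29 (0.08 to 0.23) and the MHC class I list at 0.92 (-0.02 to 0.07). In the same animal Klra9 was at 13 CPM against 4.68 to 5.94 in the other chow animals, Slc4a3 at 324 (247 to 259) and Cdkn1a at 23.4 (11.7 to 12.8). Acot2, the mitochondrial thioesterase, was low there at 60.3 CPM (90.9 to 96.4). The vessel genes Cldn5 at 74.2 CPM (16.1 to 17.4), Egfl7 at 251 (74.8 to 96.8) and Cnn1 at 6.28 (1.28 to 1.86) were high, as were Bmp4 at 16.7 (8.78 to 9.79) and B2m at 572 (247 to 296). Chow replicate 4 stood apart in Phtf1os, at 0.338 CPM against 0 in the others, and in Tmem25, at 14.5 (16.1 to 16.4).

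In UW replicate 1 Cyp26b1 was at 24.9 CPM against 5.26 to 7.57 in the other UW animals. That animal was also high in Cldn5 at 30.4 (10.9 to 13.4), Egfl7 at 114 (52.2 to 58), Col3a1 at 457 (202 to 245), Tgfb1 at 48.5 (32 to 34.5) and Lox at 10.3 (5.91 to 6.23). It was low in Myh6 at 16700 (28100 to 28700) and in chaperones at a level of -0.33 (0.23 to 0.3). UW replicate 3 held Acot1 at 91.3 CPM (21 to 28.5).

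In mNIA replicate 2 Klra9 was at 5.36 CPM (1.41 to 1.87), Egfl7 at 165 (50.2 to 63.1) and Nppa at 207 (112 to 119). Its list levels were -0.33 for fatty acid oxidation (0.23 to 0.26), -0.38 for the citric acid cycle (0.28 to 0.31) and 0.34 for pericyte and smooth muscle markers (-0.11 to -0.09). In other mNIA animals Fuk was at 3.39 CPM in replicate 1 (6.24 to 6.34), Dbp at 52.3 in replicate 3 (142 to 152), and Hspa1a at 24.3 (2.5 to 4.14) and Dhrs3 at 69.6 (101 to 102) in replicate 4. Among NIA animals Ugt1a6b was at 0 CPM in replicate 1 (1.84 to 2.13), and in replicate 4 Phtf1os was at 0.711 (1.97 to 2.18) and Armc5 at 7.82 (9.65 to 10).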

How the results depend on the processing

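No gene passed an adjusted p of 0.05 under any scaling, filter, DESeq2, 12 libraries as 1 group, or the omission of any 1 library, while limma-voom passed 4. The replicate block left 0 genes past the threshold, 272 with an unadjusted p under 0.05 and 6689 on the same side in all 3 diets. Same-numbered animals did not deviate together (median correlation -0.08 over 24 pairs, from -0.58 to 0.61, 9 above 0.1), and 4 of 16 were closest to their own number, so the titles share only a number. The count with an unadjusted p under 0.05 was 1257 in limma-voom, 490 with no filter and 615 when the 4 low-weight libraries were omitted. With those 4 omitted, 4378 genes were on the same side, 2162 of them lower, and 129 did not overlap. In limma-voom 2047 were lower in all 3 diets, and with no filter 19 genes did not overlap. Among formulas DESeq2 passed 177, limma-voom 1339, and edgeR without the 4 libraries 2171. The causes were not tested.

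Over the 16 omissions of 1 library, genes past the threshold numbered 0 to 0, those with an unadjusted p under 0.05 from 197 (without chow replicate 4) to 612 (without NIA replicate 3), those on the same side 5570 to 7772, higher 2507 to 3626, lower 2507 to 4146, without overlap 13 to 46, and different among formulas 0 to 122 (without NIA replicate 2). Log2 fold changes turned sign in some of these: Cldn5 ran from -0.92 to 0.20, Egfl7 from -0.76 to 0.012, Tgfb1 from -0.17 to 0.10, Timp1 from -0.87 to 0.11 and Nppa from -0.47 to 0.033, each positive without chow replicate 3. Col3a1 ran from -0.17 to 0.013, Fn1 from -0.068 to 0.12, Myh6 from -0.18 to 0.14, Myh7 from -0.21 to 0.042, Txnip from -0.24 to 0.016 and B2m from -0.16 to 0.32. In limma-voom and without the 4 libraries the values were 0.064 and 0.23 for Cldn5, 0.049 and 0.11 for Tgfb1, 0.050 and 0.20 for Timp1, -0.17 and -0.14 for Myh6, and 0.10 and 0.23 for B2m. B2m was at 0.00056 with RLE scaling, 0.00060 in DESeq2 and 0.00037 with 12 libraries as 1 group. With upper-quartile scaling Fn1 was at -0.020 and Myh6 at -0.021, and with the replicate block Fn1 was at -0.0031 and Myh6 at -0.034. Phtf1os ran up to 6.90 without chow replicate 4, where all chow libraries are at 0, so that value is no measure of size. The shallowest library, NIA replicate 4, held 2278250 counts, so that a gene at 1 CPM has few reads there.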
